A study of Homo sapiens with 18 samples.

Results

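IFI27, IFI6 and IFI44 and their closest relatives were followed as a group of 6 genes (IFI27, IFI27L1, IFI27L2, IFI6, IFI44 and IFI44L) among the 16472 genes of the expression table. They were chosen by name, and the group was drawn up with the time course in view, to set genes that keep rising to 48 h of interferon against genes that decline after 12 h in wild-type and knockout cells. The course after interferon is therefore described below with no test, and tests are given only for the difference between genotypes. All 6 genes were in the table and passed the filter on low values (at least 1 RPKM in at least 3 libraries), as 13280 genes did. IFI44L passed only through its interferon-treated libraries.

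IFI27 and IFI6 encode small hydrophobic proteins of the ISG12 family, found in mitochondria, the endoplasmic reticulum or the nuclear envelope, and are among the genes most widely used as a readout of type I interferon. IFI27L1 and IFI27L2 are members of the same family that lie beside IFI27. IFI44 and IFI44L are neighbouring genes for related proteins with a GTP-binding region, and both are induced by type I interferon in many tissues. Type I interferon acts through the receptor chains IFNAR1 and IFNAR2 and the kinases JAK1 and TYK2, and the transcription factor complex that they activate, of which STAT2 and IRF9 are parts, binds a promoter sequence called the interferon-stimulated response element, or ISRE. SP100 is a protein of PML nuclear bodies and is itself interferon-stimulated.

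The cells were NIKS, an established line of immortalized human keratinocytes that is kept on irradiated J2/3T3 mouse fibroblasts. RNA was sequenced in 18 libraries, 3 biological replicates in each of 6 groups: SP100 wild type (WT) or SP100 knockout (KO), each left without interferon (0 h) or given 25 ng/mL of human interferon alpha 2a over 12 or 48 h. The column names of the table carry 1 line name per genotype, Vec2 for WT and KO5 for KO. The loss of SP100 and other differences between the lines therefore cannot be told apart. No untreated library at 12 or 48 h was analysed here, so the length of exposure to interferon and the length of culture cannot be told apart either.

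Because the 6 genes fall into induced and non-induced members, their promoters are shown before their values. All 6 matched a RefSeq window of 300 bases, from 250 bases before to 50 bases after the annotated start site (GRCh38.p14, which is not the build of the expression data). IFI27 and IFI44 each also had a window from a start site further downstream, with the same motif matches at other distances. Only their upstream window is described here. The 250 bases before the start site of the 4 induced genes are printed 5′ to 3′ on the gene's strand, with each match to the ISRE core in capitals. The core searched for is GAAA, any 2 bases and GAAA, on either strand (read on the other strand as TTTC, any 2 bases and TTTC).
IFI27, chr14:94110486-94110735, + strand: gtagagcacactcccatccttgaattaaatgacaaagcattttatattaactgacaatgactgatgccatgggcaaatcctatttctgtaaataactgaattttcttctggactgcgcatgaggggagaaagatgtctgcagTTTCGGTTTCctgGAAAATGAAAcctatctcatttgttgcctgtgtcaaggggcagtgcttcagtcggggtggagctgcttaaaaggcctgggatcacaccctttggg
IFI6, chr1:27672193-27672442, - strand: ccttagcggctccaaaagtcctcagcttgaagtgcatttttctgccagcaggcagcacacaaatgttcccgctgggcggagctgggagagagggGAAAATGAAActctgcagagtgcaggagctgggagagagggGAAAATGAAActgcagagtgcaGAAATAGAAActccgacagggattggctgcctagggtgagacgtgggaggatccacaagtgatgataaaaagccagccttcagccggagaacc
IFI44L, chr1:78620198-78620447, + strand: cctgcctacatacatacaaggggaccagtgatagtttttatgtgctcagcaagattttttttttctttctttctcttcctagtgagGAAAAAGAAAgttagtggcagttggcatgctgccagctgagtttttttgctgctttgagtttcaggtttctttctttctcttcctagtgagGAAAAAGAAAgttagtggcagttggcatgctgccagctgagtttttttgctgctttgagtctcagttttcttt
IFI44, chr1:78649539-78649788, + strand: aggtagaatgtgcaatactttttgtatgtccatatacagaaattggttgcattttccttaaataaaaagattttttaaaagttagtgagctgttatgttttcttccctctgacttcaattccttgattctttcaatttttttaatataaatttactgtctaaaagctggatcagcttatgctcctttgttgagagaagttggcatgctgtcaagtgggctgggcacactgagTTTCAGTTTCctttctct

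IFI6 held 3 ISRE cores, all on the gene's strand, beginning at positions -156, -115 and -93 from the start site. IFI27 held 2 cores, on opposite strands, and across their facing ends a match to GAS, the interferon-activated site motif TTC, any 3 bases and GAA. The GAS match overlaps both cores. IFI44L held 2 cores and IFI44 held 1. IFI27L1 and IFI27L2 held neither an ISRE core nor a GAS match, which says only that these letters are not in these windows.

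The core was present in 3.57% of all 35116 RefSeq windows and in 3.94% of the 9653 tested genes with a window. At least 3 cores, as in IFI6, occurred in 13 windows (0.037%). A longer form, the core followed by CT, was found in 0.27% of windows. It matched all 3 cores of IFI6, 1 of the 2 in IFI27 and the single core of IFI44, but neither core of IFI44L. GAS occurred in 7.66% of windows.

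The cores of IFI44L lay inside an exact direct repeat of 85 bases whose copies began 91 bases apart, so its 2 cores are copies of the same sequence. Only 33 windows (0.094%) held an exact repeat at least as long. IFI6 had a repeat of 29 bases with copies 41 bases apart, each carrying an ISRE core, and 0.883% of windows had a repeat of that length or more. IFI44 and IFI44L shared a run of 13 bases, agttggcatgctg, and 79 other windows (0.225%) shared a run of that length with IFI44. The windows of IFI27L1 and IFI27L2 were GC-rich (65.3% and 63.3%) beside a median of 58.7% over all windows, whereas those of IFI44 (35%), IFI44L (41%), IFI27 (44.7%) and IFI6 (54%) were below it.

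**Figure D1:**
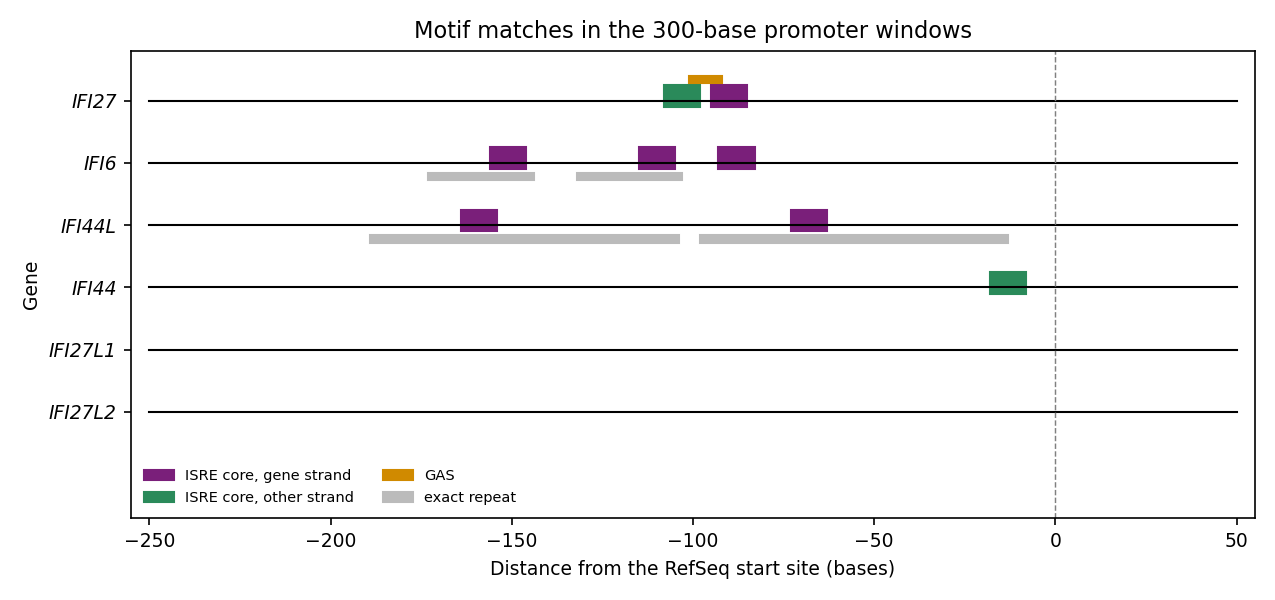
Motif matches in the 300-base RefSeq promoter windows of the 6 genes (the upstream window for IFI27 and IFI44), with the distance from the annotated start site in bases on the x axis and 1 line per gene. Purple and green blocks are ISRE cores on the gene's strand and on the other strand, the ochre block is a GAS match and grey bars are the copies of an exact repeat. IFI6 has 3 cores, IFI27 and IFI44L have 2, IFI44 has 1, and IFI27L1 and IFI27L2 have none.

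Expression is given in RPKM, read counts scaled by gene length and library size. The gene lengths used are not given in the sources used here, so comparisons of level between genes depend on them. The total number of reads is unknown, and relative depth, read from the spacing of low values, varied 1.49-fold between libraries (0.846 to 1.264). Replicate pairs correlated at 0.985 to 0.989 across genes on the log2 scale. The 12 keratinocyte markers were all present, with summed levels of 16775 to 19666 RPKM, while 4 of 10 fibroblast markers (sum 6.21 to 9.48 RPKM) and 2 of 6 melanocyte markers (sum 0.98 to 2.34 RPKM) were in the table. The markers are human genes, so low fibroblast values do not show whether RNA of the mouse fibroblasts in the culture was present. Of 8 immune cell markers, CD68 and CD14 were present and PTPRC was not in the table. Their sum was higher in interferon, from 24.1 to 25.3 RPKM in untreated WT cells to 53.1 to 58.9 RPKM at 12 h, and from 19.6 to 21.1 to 45 to 51.5 RPKM in KO cells. Their part in the results below was not tested.

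SP100 (ENSG00000067066), the targeted gene, was measured at 30.1, 31.9 and 27.9 RPKM in untreated WT libraries and at 16, 14.2 and 15.2 RPKM in untreated KO libraries. After 12 h the WT libraries held 151 to 172 RPKM, those of KO cells 86.5 to 93.2 RPKM, and after 48 h they held 124 to 131 and 57.4 to 62.4 RPKM. Its RNA was thus lower in KO at each time, with no overlap, but was still present and still rose with interferon. The KO minus WT differences at the 3 times were -0.94, -0.83 and -1.08 on the log2(RPKM + 1) scale (SE 0.059, limma adjusted p = 4.92e-08, 3.61e-07 and 1.47e-08). The table does not measure protein.

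IFI27, IFI6, IFI44L and IFI44 were at or below 4.66 RPKM in each untreated library and at or above 122 RPKM in each library at 12 h. After that they parted: IFI27, IFI6 and IFI44L went on rising to 48 h, whereas IFI44 declined, in WT and in KO cells alike. IFI27L1 and IFI27L2 were expressed without interferon, and their means were lower at 12 h than at 0 or 48 h, though for IFI27L1 in KO cells the 0 and 12 h libraries overlapped. These courses are what the genes were grouped by.

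IFI27 (ENSG00000165949), whose product is mitochondrial and linked to apoptosis and antiviral defence, was read at 1.58, 2.75 and 0.92 RPKM in the untreated WT libraries. The WT libraries reached 1155, 1167 and 1249 RPKM at 12 h and then 2604, 2812 and 2923 RPKM at 48 h. The untreated KO libraries had 0.35, 1.15 and 0.71 RPKM, followed by 1002, 1056 and 1078 RPKM at 12 h and 2751, 2551 and 2214 RPKM at 48 h. By mean level in WT cells it moved from place 11547 of the 16472 genes to place 94 at 12 h and 29 at 48 h, and in KO cells from 13035 to 109 and 31. The 3 times did not overlap in either genotype. Its 48 h mean was 2.34 times the 12 h mean in WT and 2.40 times in KO cells.

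IFI6 (ENSG00000126709), a family member known to protect cells from apoptosis and to block flavivirus replication at the endoplasmic reticulum, followed the same course at a lower level. It stood at 2, 1.49 and 1.38 RPKM in untreated WT cells, at 716, 663 and 678 RPKM at 12 h, and at 1249, 1323 and 1269 RPKM at 48 h. In KO cells the values were 1.23, 1 and 1.23 RPKM untreated, then 597, 598 and 594 RPKM, then 1008, 1132 and 1144 RPKM. Its rank by mean went from 11680 to 160 and 90 in WT cells. The 6 groups occupied 6 separate ranges, with KO below WT at each time and each later time above the earlier one. The rise from 12 to 48 h was 1.87-fold in WT and 1.84-fold in KO cells.

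IFI44L (ENSG00000137959) started from almost nothing: the untreated libraries read 0.07, 0.05 and 0 RPKM in WT and 0.05, 0.12 and 0 RPKM in KO cells. After 12 h the WT libraries read 127, 129 and 127 RPKM, and 136, 122 and 126 RPKM were read in KO libraries. After 48 h they read 172, 182 and 186 RPKM (WT) and 182, 169 and 182 RPKM (KO). The 2 genotypes overlapped at each of the 3 times, and the 3 times did not overlap. The 48 h mean was 1.41 and 1.39 times the 12 h mean in WT and KO cells. No fold change over untreated cells is given, since 2 of the 6 untreated libraries listed the gene at 0.

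IFI44 (ENSG00000137965), reported to restrain cell proliferation, was the member that declined. WT libraries read 3.39, 4.66 and 3.47 RPKM untreated, 206, 209 and 205 RPKM at 12 h, and 180, 176 and 176 RPKM at 48 h. KO libraries read 0.74, 1.19 and 0.50 RPKM untreated, 230.2, 204 and 205 RPKM at 12 h, and 169, 154 and 164 RPKM at 48 h. From 12 to 48 h its mean fell by 14.2% in WT and by 23.7% in KO cells, with no overlap between the times. Ordered by level, untreated KO lay below untreated WT, KO at 48 h below WT at 48 h, and the 12 h groups of the 2 genotypes overlapped at the top.

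IFI27L2 (ENSG00000119632), the IFI27 relative with the higher level, changed little: 61.3, 62.4 and 61.1 RPKM in untreated WT cells, 49.7, 50.8 and 54.5 RPKM at 12 h, and 55.9, 64.6 and 64 RPKM at 48 h. KO cells had 62, 56.5 and 65.7 RPKM, then 50.9, 50.8 and 54.5 RPKM, then 65.3, 69.7 and 58.6 RPKM. The 12 h libraries lay below both other times in each genotype, and the untreated and 48 h libraries overlapped.

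IFI27L1 (ENSG00000165948) was lower still and more variable. It stood at 15.5, 12.2 and 10.3 RPKM in untreated WT cells, 10.2, 10 and 9.60 RPKM at 12 h, and 13.9, 18.8 and 16.4 RPKM at 48 h. KO cells had 10 to 13.2 RPKM untreated, 7.91 to 12.4 RPKM at 12 h and 14.1 to 19.4 RPKM at 48 h. In KO cells the untreated and 12 h ranges overlapped.

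**Figure D2:**
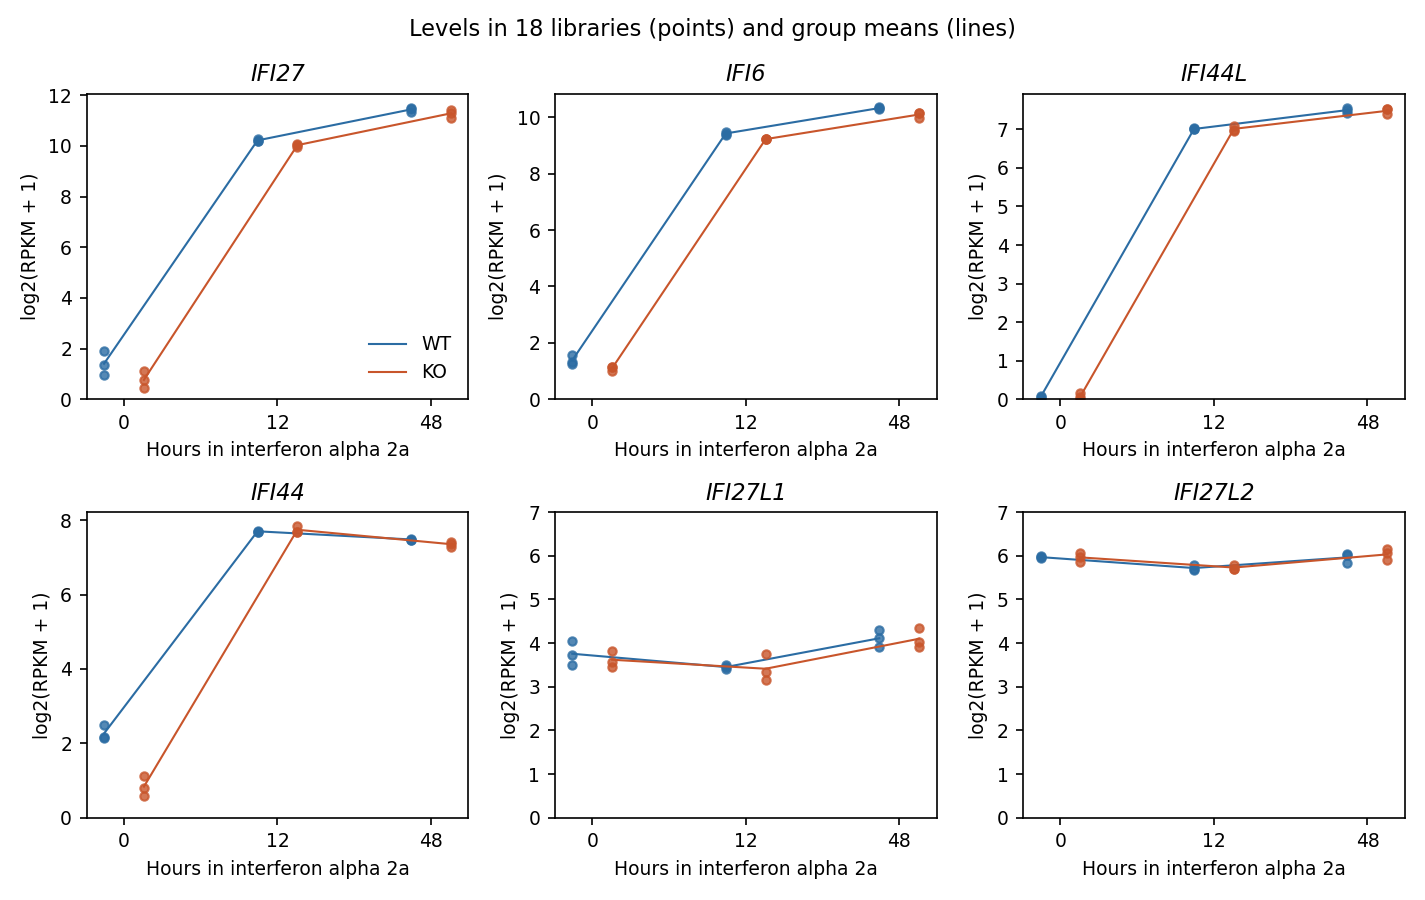
Levels of the 6 genes in the 18 libraries as log2(RPKM + 1) on the y axis, against hours in interferon alpha 2a (0, 12 and 48, evenly spaced) on the x axis. Points are libraries and lines join group means, with WT in blue and KO in orange. IFI27, IFI6 and IFI44L rise at both steps, IFI44 rises and then falls, and IFI27L1 and IFI27L2 stay within a narrow range.

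All differences are on the log2(RPKM + 1) scale, on which changes of low genes come out too small. The first 12 h added 8.81 (WT) and 9.26 (KO) for IFI27. For IFI6 it added 8.04 and 8.12, for IFI44L 6.95 and 6.93, and for IFI44 5.43 and 6.90. The differences of IFI27L1 were -0.30 and -0.21 and those of IFI27L2 -0.25 and -0.23, where the median of all genes tested was -0.085 and -0.095. In WT cells 4 of the 6 genes were higher at 12 h without overlap and 2 were lower. In KO cells 4 were higher, IFI27L2 was lower and IFI27L1 overlapped. Among all genes tested, 18.5% were higher and 35.2% lower without overlap in WT cells, and 18.4% and 36.8% in KO cells. These shares depend on the scaling: of the genes that limma called between 0 and 12 h, 33.6% were higher in WT and 32.7% in KO cells, and 51.6% and 50.9% under median-of-ratios scaling. Under it the differences of IFI27L2 were -0.16 and -0.13 and that of IFI27L1 in KO cells was -0.11. Without WT 0 h replicate 1 that of IFI27L1 in WT cells was -0.16. In KO cells it was -0.077 without 12 h replicate 1, -0.10 without 0 h replicate 3 and -0.37 without 12 h replicate 2.

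From 12 to 48 h the log2 difference was 1.22 in WT and 1.26 in KO cells for IFI27 (SE 0.183). It was 0.90 and 0.87 for IFI6 (SE 0.0722), 0.49 and 0.47 for IFI44L (SE 0.0532), and -0.22 and -0.39 for IFI44 (SE 0.110). IFI27L1 gave 0.66 and 0.69 (SE 0.164) and IFI27L2 0.24 and 0.30 (SE 0.0694). In each genotype 5 of the 6 genes were higher at 48 h without overlap and IFI44 was lower. Over all genes tested 31.8% were higher and 15.4% lower without overlap in WT cells, and 32.2% and 17% in KO cells, so the 12 to 48 h step was upward for many genes. Of the genes that limma called between these times in WT cells, 68.5% were higher, and 46.9% under median-of-ratios scaling (KO 66.4% and 47.5%). The median of all genes was 0.074 and 0.079 as deposited. Under that scaling the directions of the 6 genes held, with 0.16 (WT) and 0.21 (KO) for IFI27L2, the smallest of the rises, and -0.31 and -0.48 for IFI44.

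Relative to untreated cells, the 48 h differences were 10.03 and 10.52 for IFI27, 8.94 and 8.99 for IFI6, 7.44 and 7.40 for IFI44L, and 5.21 and 6.51 for IFI44 (WT and KO). IFI27L1 gave 0.35 and 0.48, and IFI27L2 -0.0056 and 0.070. In WT cells 4 genes were higher without overlap and 2 overlapped. In KO cells 5 were higher, IFI27L1 included, and IFI27L2 overlapped. The matching shares of all genes were 15.8% higher in WT and 12.8% higher in KO cells.

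The split between the neighbours IFI44 and IFI44L was clear within single libraries, where depth cancels. The ratio of IFI44L to IFI44 was 0.618, 0.617 and 0.619 in the WT libraries at 12 h and 0.954, 1.03 and 1.06 at 48 h. In KO cells it was 0.590, 0.599 and 0.616 at 12 h and 1.07, 1.09 and 1.11 at 48 h. By RPKM, IFI44L was thus below IFI44 in each 12 h library and about level with it at 48 h. The size of the ratio depends on the gene lengths used, while its change between times does not. The ratio of IFI27 to IFI6 averaged 1.74 ± 0.12 (SD, n = 3) in WT and 1.75 ± 0.069 in KO cells at 12 h. At 48 h it averaged 2.17 ± 0.12 in WT and 2.31 ± 0.40 in KO cells, with each 48 h library above the 12 h libraries of its genotype. A ratio shows unequal change and does not show which gene of a pair moved.

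**Figure D3:**
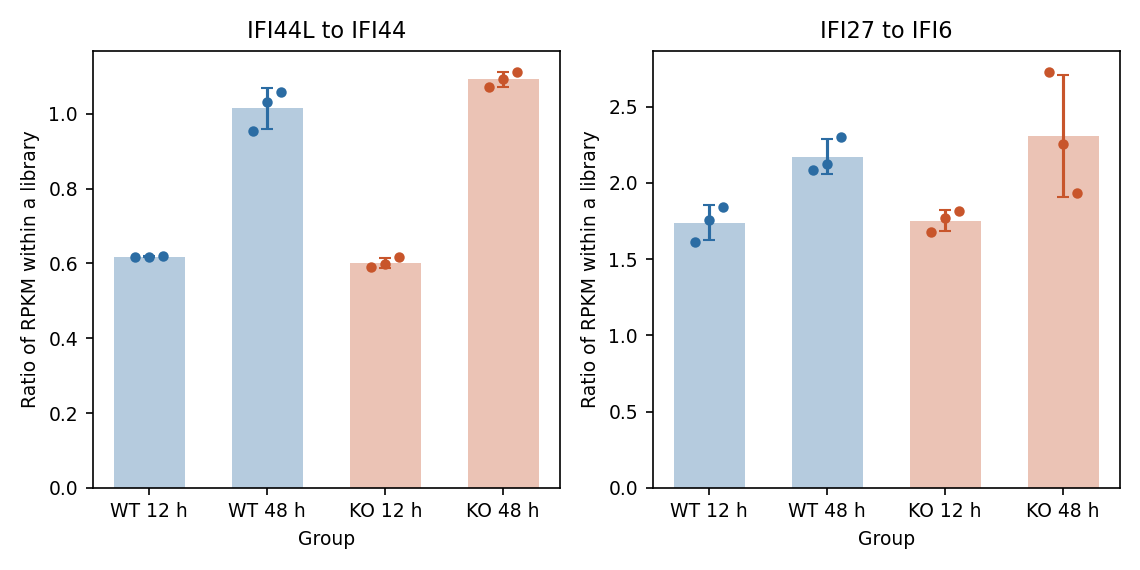
Ratio of IFI44L to IFI44 (left) and of IFI27 to IFI6 (right) within each library, on y axes that start at 0, in WT and KO cells at 12 and 48 h. Bars are means, points are the 3 libraries and error bars are SD. Between 12 and 48 h the mean of IFI44L to IFI44 moves from 0.618 to 1.01 (WT) and from 0.602 to 1.09 (KO).

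KO cells were compared with WT at each time, a contrast that the rule for choosing the genes does not use, although the genes were chosen with earlier results of these data known. IFI44 and IFI6 were lower in untreated KO cells, and after interferon none of the 6 genes passed the threshold (adjusted p under 0.05 in limma, over 13280 genes). Each gene has 1 estimate of spread over all 6 groups. An SE or interval at 0 h thus also rests on treated libraries, and those at 12 and 48 h also on untreated ones. At 0 h 2 of the 6 genes were called, both lower, beside 4.89% of all genes called and 2.07% called lower. Over all genes 57.7% of the calls at 0 h were higher in KO, and 46.9% under median-of-ratios scaling. In bulk RNA, fewer expressing cells and less RNA per cell cannot be told apart.

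Untreated IFI44 was 3.39 to 4.66 RPKM in WT and 0.50 to 1.19 RPKM in KO libraries, lower without overlap, as 8.85% of all genes were. The difference was -1.43 on the log2 scale (SE 0.110, 95% interval -1.66 to -1.19, limma adjusted p = 5.95e-07). It passed the threshold in each of 13 alternative analyses, with adjusted p from 1.42e-07 to 0.0124, and was -2.17 with a pseudocount of 0.1 in place of 1.

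Untreated IFI6 was 1.38 to 2 RPKM in WT and 1 to 1.23 RPKM in KO libraries. The difference was -0.28 (SE 0.0722, interval -0.43 to -0.13, limma adjusted p = 0.035). This call rested on individual libraries: without WT replicate 1 it was -0.18 (adjusted p = 0.122), and the adjusted p was 0.0521 without WT replicate 2, 0.0588 without KO replicate 1 and 0.16 without KO replicate 2. The call was also lost with a variance model without a trend (0.0558) and with a fit on the untreated libraries alone (0.312), while a pseudocount of 0.1 gave -0.45 (0.0154). Untreated IFI27 was -0.63 (SE 0.183, interval -1.02 to -0.25, adjusted p = 0.0594), and its ranges overlapped. It passed without WT replicate 3 (-0.87, adjusted p = 0.00719), without KO replicate 2 (-0.80, adjusted p = 0.0316) and with a pseudocount of 0.1 (-1.14, adjusted p = 0.0471). Without WT replicate 2 it was -0.38 (adjusted p = 0.24), and over all alternatives its adjusted p ranged from 0.00719 to 0.302. All 3 genes were below 5 RPKM in these libraries, and their depth in reads is unknown. Of the 41 other interferon-stimulated genes, 12 were called lower and 1 higher in untreated KO cells, among them IFIT2 (-1.03, adjusted p = 1.77e-06), IFITM1 (-0.52, 0.00174), IFITM2 (-0.57, 9.21e-05) and IFITM3 (-0.52, 8.83e-06), all lower.

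The other 3 genes did not pass at 0 h. IFI44L gave 0.022 (interval -0.091 to 0.14, adjusted p = 0.885), IFI27L1 -0.14 (-0.48 to 0.21, adjusted p = 0.726) and IFI27L2 -0.0069 (-0.15 to 0.14, adjusted p = 0.978). For IFI44L both groups were at or near 0 RPKM, where the log2(RPKM + 1) scale leaves little room for a difference.

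At 12 h limma called none of the 6 genes (1 at an unadjusted p under 0.05, IFI6), beside 3.62% of all genes. IFI6 was -0.20 (SE 0.0722, interval -0.35 to -0.047, adjusted p = 0.157) and IFI27 -0.19 (SE 0.183, interval -0.58 to 0.20, adjusted p = 0.664). Both were lower in KO without overlap, as 9.77% of all genes were. Over the alternatives the limma adjusted p ranged from 0.0477 to 0.386 for IFI6 and from 0.112 to 0.831 for IFI27. IFI44, the gene with the wide gap before interferon, was 0.041 (interval -0.19 to 0.27, adjusted p = 0.902). IFI44L was 0.0030 (-0.11 to 0.12, adjusted p = 0.986).

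At 48 h limma again called none (1 at an unadjusted p under 0.05, IFI6), beside 4.19% of all genes. IFI6 was -0.23 (interval -0.38 to -0.074, adjusted p = 0.0999) and IFI44 -0.13 (-0.36 to 0.11, adjusted p = 0.647), both without overlap, as 9.29% of all genes were. IFI27 was -0.15 (-0.54 to 0.23, adjusted p = 0.758) and IFI44L -0.018 (-0.13 to 0.095, adjusted p = 0.919). IFI27L1 and IFI27L2 stayed within -0.039 to 0.069 of WT at 12 and 48 h. IFI6 had a negative difference at all 3 times, between -0.28 and -0.20. So did IFI27 (-0.63, -0.19 and -0.15) and IFI27L1 (-0.14, -0.039 and -0.010). With a pseudocount of 0.1 the 0 h difference of IFI6 was -0.45, so its likeness to the later ones depends on the scale. The intervals of IFI27 included 0 at 12 and 48 h, and those of IFI27L1 at all 3 times, while those of IFI6 did not.

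**Figure D4:**
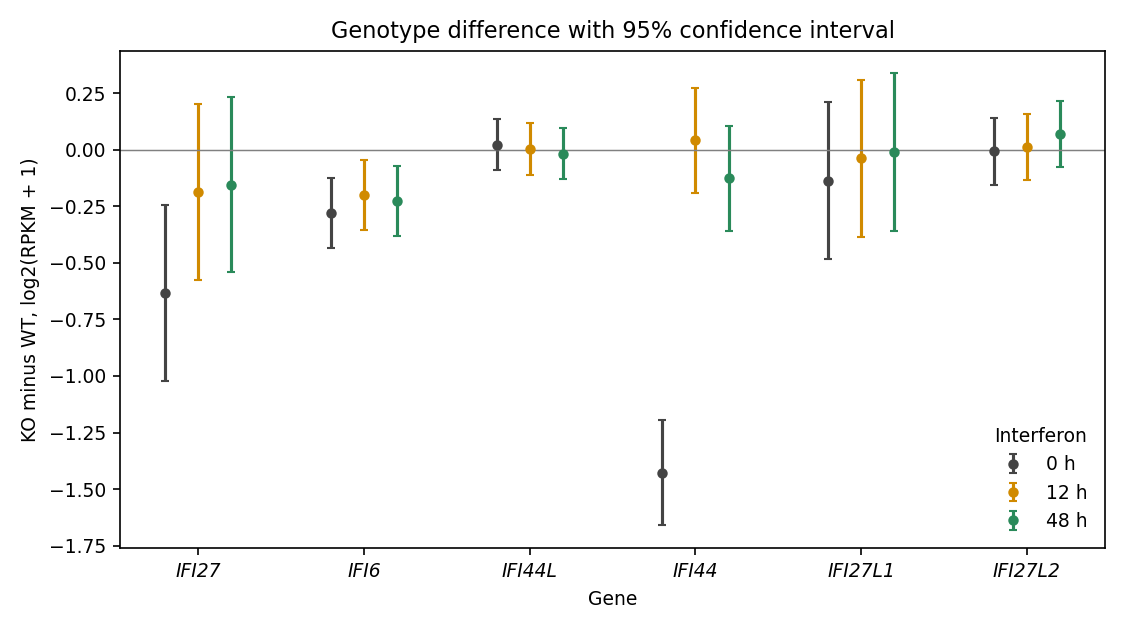
KO minus WT difference of the 6 genes on the log2(RPKM + 1) scale (y axis) at 0, 12 and 48 h of interferon (colours), from limma over all 18 libraries. Points are differences and bars are 95% confidence intervals before adjustment. IFI44 lies at -1.43 at 0 h and near 0 after interferon, and IFI6, IFI27 and IFI27L1 lie below 0 at each time.

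The response to interferon was then compared between genotypes as an interaction. IFI44 gained more in KO than in WT cells: it started lower by 1.43 and at 12 and 48 h differed by 0.041 and -0.13. Its mean rose 53.8-fold in WT and 263-fold in KO cells by 12 h, and the interaction was 1.47 (SE 0.155, interval 1.14 to 1.80, limma adjusted p = 0.000305). By 48 h the interaction was 1.30 (interval 0.97 to 1.63, adjusted p = 0.00118). It was the single one of the 6 genes called at each time, beside 0.0753% of all genes at 12 h (10 genes) and 0.0828% at 48 h (11 genes). Over 19 alternatives the adjusted p ranged from 2.82e-05 to 0.00973 at 12 h and from 0.000123 to 0.0456 at 48 h. With a pseudocount of 0.1 the interactions were 2.21 and 2.04. Of the 41 other interferon-stimulated genes described below, 7 were called higher at 12 h, and 8 higher and 1 lower at 48 h. Of those named below, IFIT2 was called at both times (0.89 and 0.90, adjusted p = 0.00616 and 0.00549) and IFITM3 at 48 h (0.42, adjusted p = 0.0393). Under median-of-ratios scaling the counts were 6 at 12 h, and 7 higher and 1 lower at 48 h, and IFITM3 was not called (adjusted p = 0.0552).

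The other 5 genes did not pass. IFI27 had interactions of 0.45 at 12 h (interval -0.10 to 1.00, adjusted p = 0.925) and 0.48 at 48 h (-0.069 to 1.03, adjusted p = 0.823). Without untreated WT replicate 2 these were 0.20 and 0.23, without untreated KO replicate 1 they were 0.28 and 0.31, without untreated WT replicate 3 they were 0.68 and 0.71, and with a pseudocount of 0.1 they were 0.95 and 0.99. IFI6 had 0.079 (-0.14 to 0.30) and 0.052 (-0.17 to 0.27), and over the alternatives these reached 0.25 and 0.22. IFI44L had -0.019 (-0.18 to 0.14) and -0.040 (-0.20 to 0.12). Its untreated level was at or near 0 RPKM in both genotypes, where this scale leaves little room for a difference. The interactions of IFI44L thus largely repeat its KO minus WT differences in treated cells. They cannot show whether its rise over untreated cells was equal.

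The step from 12 to 48 h was compared between genotypes last. The 6 genes were grouped by this step in both genotypes, so for them the values are a description with no test. Over all genes limma called 0 (0%), with 904 at an unadjusted p under 0.05. For IFI44, which fell further in KO cells by its means, the interaction was -0.17 (interval -0.50 to 0.16). For IFI27 it was 0.033 (-0.52 to 0.58), for IFI6 -0.027 (-0.24 to 0.19) and for IFI44L -0.021 (-0.18 to 0.14).

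The 6 genes were set against 42 other interferon-stimulated genes, of which 41 were tested. All 41 were called higher at 12 h and at 48 h than untreated in both genotypes by limma, beside 15.1% and 6.52% of all genes in WT and 16% and 5.9% in KO cells. Between 12 and 48 h, however, 32 were lower and 6 higher in WT cells, and 34 lower and 6 higher in KO cells, with medians of -0.60 and -0.74. Over all genes tested, 24.6% were called higher and 11.3% lower in WT cells, and 27.7% and 14% in KO cells. Under median-of-ratios scaling 4 of the 41 were higher, with 32 and 34 lower. The decline of IFI44 was smaller than the median of this list, and by the mean of both genotypes the rise of IFI27 was below that of BST2 and above that of IFITM1, while that of IFI6 was below IFITM1 and above IFITM3.

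The 4 listed genes with the highest mean change were BST2, IFITM1, IFITM3 and IFITM2, membrane proteins that hold back virus release or entry. BST2 gained 1.24 in WT and 1.49 in KO cells between 12 and 48 h (adjusted p = 4.71e-07 and 4.33e-08), IFITM1 0.91 and 1.11 (1.28e-06 and 1.06e-07), IFITM3 0.69 and 0.88, and IFITM2 0.48 and 0.65. At the other end, IFIT2, an RNA-binding antiviral protein, was at -1.66 and -1.65, and ISG20, an exonuclease, at -2.37 and -2.23. The chemokines CXCL11 and CXCL10 were at -4.39 and -4.23 and at -5.45 and -5.22. In WT cells the mean of CXCL10 was 141 RPKM after 12 h and 2.28 RPKM after 48 h, while that of IFI27 was 1190.3 and 2780 RPKM in the same libraries.

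**Figure D5:**
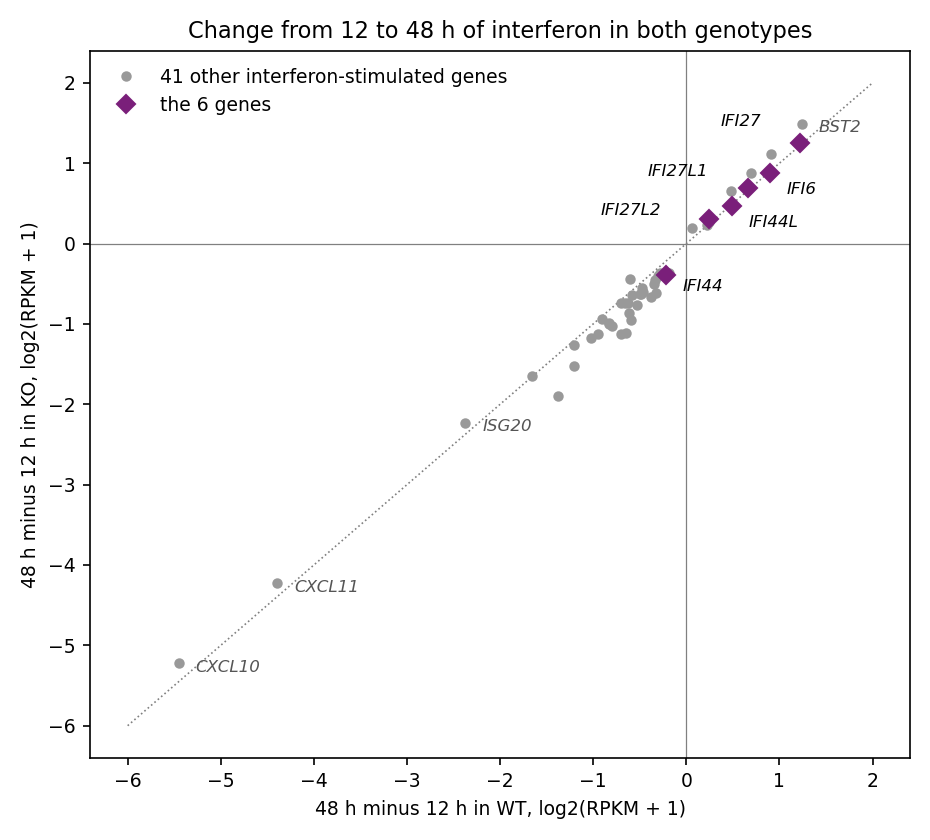
Change from 12 to 48 h of interferon on the log2(RPKM + 1) scale in WT (x axis) and KO cells (y axis), for the 6 genes (purple diamonds) and 41 other interferon-stimulated genes (grey points). The dotted line marks equal change. Most grey points lie below 0 in both genotypes, IFI44 lies at -0.22 and -0.39, and the other 5 diamonds lie above 0.

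Among all 96 genes that rose at least 4-fold on this scale at 12 or 48 h in both genotypes, 18 were higher at 48 than at 12 h in both, 74 were lower in both and 4 were mixed. Ranked by mean change from 12 to 48 h, IFI27 was place 4, IFI6 place 10, IFI44L place 14 and IFI44 place 26. The ISRE core was in the promoter window of 37 of the 64 non-member genes of this set with a window (57.8%), its longer form in 25%, and GAS in 23.4%. The core was present in all 4 induced members, in those that kept rising and in the one that declined.

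The genes with the most similar profiles over the 18 libraries (Pearson correlation of log2 values, which share depth and the contrast between treated and untreated cells) were others for IFI44 than for IFI27, IFI6 and IFI44L. These are the same values by which the 6 genes were grouped, so this is a description of that grouping. For IFI27 they were IFITM1 (r = 0.998), SHISA5 (0.997) and CMPK2 (0.996), and the same 3 genes led for IFI6 (0.998 each) and for IFI44L (0.999, 0.996 and 0.995 for CMPK2, SHISA5 and IFITM1). For IFI44 they were IFIT3, ISG15 and IRF9 (0.996 to 0.997). The 4 induced members correlated with each other at 0.982 to 0.999, with IFI44 the least similar. IFI27L1 and IFI27L2 correlated with each other at 0.718 and with IFI27 at 0.216 and -0.252. Their most similar genes were TKFC, NFKBIL1 and AVPI1 for IFI27L1 (0.877 to 0.886) and MRPL23, ANAPC11 and MAF1 for IFI27L2 (0.922 to 0.930).

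The receptor and signalling genes upstream of the 6 genes did not all follow the same course. STAT2 averaged 10.8 ± 1.4 RPKM in untreated WT cells, 58.5 ± 2.6 RPKM after 12 h and 42.6 ± 1.3 RPKM after 48 h (SD, n = 3). It was lower at 48 than at 12 h in WT and KO cells (limma adjusted p = 0.000129 and 6.71e-05). IRF9, the DNA-binding partner of STAT2, went from 6.12 ± 0.27 to 72.1 ± 1.1 RPKM and was at 72.6 ± 4.4 RPKM at 48 h (adjusted p = 0.971 against 12 h). IRF9 was also lower in untreated KO cells, at 4.01 ± 1.0 RPKM (difference -0.53, SE 0.113, adjusted p = 0.0109).

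IFNAR2 fell by 0.50 in WT and by 0.63 in KO cells by 12 h (adjusted p = 0.000313 and 3.12e-05) and rose again by 48 h. JAK1 rose by 0.31 and 0.41 and then fell by 0.36 and 0.37. TYK2 did not pass in these comparisons. Under median-of-ratios scaling it was called higher at 12 h in WT cells (0.23, adjusted p = 0.0306) and lower at 48 than at 12 h (-0.26 in WT, -0.23 in KO cells). IFNAR1, called lower at 12 h in KO cells (-0.21, adjusted p = 0.0341) and higher at 48 than at 12 h in WT cells (0.22, adjusted p = 0.0369), was not called under that scaling. USP18, an inhibitor of receptor signalling, averaged 1.30 ± 0.053 RPKM in untreated WT cells, 76.4 ± 2.8 RPKM after 12 h and 38 ± 1.2 RPKM after 48 h, a fall of 0.99 on the log2 scale (1.14 in KO cells) over the interval in which IFI27 and IFI6 rose. It was higher in untreated KO cells (difference 0.32, adjusted p = 0.000629), the opposite direction to IFI44. SOCS3 stayed between 0.80 and 2.64 RPKM and was called lower at 48 than at 12 h in KO cells (-0.45, adjusted p = 0.0368), while SOCS1 stayed under 1 RPKM and was not tested.

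The transcripts of these genes shared little sequence with those of other genes. Of the 31-base words in the GENCODE 29 transcripts of IFI27, 1.62% occurred in another gene, against 0.58% for IFI27L2, 0.45% for IFI6, 0.02% for IFI44L and none for IFI27L1 and IFI44. A single word was shared between members, by IFI27 and IFI27L2. IFI6 overlaps the antisense gene AL445490.1 on the opposite strand. The library kit preserves strand, but whether counting used it is not given in the sources used here, so reads of that pair may not be told apart.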

How the data were processed

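RNA sequencing of poly(A) RNA from 18 NIKS libraries was analysed from 1 deposited table. The authors deposited RPKM values for 16472 Ensembl gene IDs, rounded to 2 decimals. Per the submitters' processing notes, cutadapt, STAR 2.6.1, RSEM 1.3.0, limma 3.50.3 and hg19 were used, with no roles stated. The annotation, gene filter and read totals are not given in the sources used here. Symbols were matched for 15666 IDs.

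Values were transformed to log2(RPKM + 1). Genes with at least 1 RPKM in at least 3 libraries were fitted in limma 3.58.1 (R 4.3.3) with 1 mean per group over all 18 libraries and a mean-variance trend. Benjamini-Hochberg adjustment covered the 13280 genes of each comparison. P-values measure the spread between replicates of 1 line per genotype. The fit was tested on simulated data. Alternatives were a pseudocount of 0.1, no filter, a mean of at least 5 RPKM, median-of-ratios scaling, the replicate number as a block, no mean-variance trend, the libraries of a comparison alone, and each library left out. Besides the 6 genes and SP100, genes named were the 4 highest and 4 lowest of the interferon list by change from 12 to 48 h, the signalling (1 is not reported here), inhibitor and partner genes, the 3 most similar genes per member, and the nearest listed genes. The members and lists were chosen with earlier results of these data known. Promoter sequences come from RefSeq.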

Additional observations from a re-analysis of the deposited data

Results flagged for a closer look

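The response of IFI44 to interferon differed between genotypes at both times. The difference between KO and WT in the change from 0 to 12 h was 1.468 on the log2(RPKM + 1) scale (limma adjusted p = 0.000305), and in the change from 0 to 48 h it was 1.300 (adjusted p = 0.00118). All 3 untreated KO libraries were below all 3 untreated WT libraries, and both values share these untreated libraries, so they are not independent. The difference between genotypes itself was 0.041 at 12 h and -0.13 at 48 h.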

How the results depend on the processing

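The genotype difference of IFI44 at 0 h and its interactions at 12 and 48 h passed the threshold under each of the alternatives run. The number of members called at 0 h, 2 in the main analysis, was 1 with variances without a trend, 1 with the replicate block and 1 with the libraries of the comparison alone, and 1 to 3 with a library left out. At 12 h the libraries of the comparison alone gave 1 member (IFI6, adjusted p = 0.0477). The replicate numbers showed no clear pairing of the samples: 2 of 45 same-numbered pairs correlated above 0.1 (-0.097 to 0.157), and 2 of 18 libraries were closest to their own number. A weak pairing could be missed by this check. The replicate block took IFI6 at 0 h to an adjusted p of 0.055 and changed no other member's call. The counts over all genes changed where fewer libraries were fitted, and are given here against those of the main analysis. With the libraries of the comparison alone they were 306 against 650 at 0 h, 213 against 481 at 12 h and 250 against 556 at 48 h. For the interactions they were 6 against 10 at 12 h and 3 against 11 at 48 h. The interaction of 48 h against 12 h gave 1 against 0 (also 1 without a trend). The comparison of 48 h against 0 h in KO gave 945 against 1770. With a library left out these were 390 to 580, 311 to 448, 6 to 9 and 7 to 11 for the interactions at 12 and 48 h, and 1159 to 1589 for 48 h against 0 h in KO. The number of other interferon-stimulated genes called alike in both genotypes between 12 and 48 h was 38, and 36 to 39 over the alternatives.

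Small differences changed sign. Scaling gave -0.0061 for IFI44L (KO against WT, 12 h) and 0.0024 for IFI27L2 (48 h against 0 h, WT). With a library left out, IFI27L1 in KO against WT ranged from -0.27 to 0.0085 at 0 h, -0.21 to 0.090 at 12 h and -0.14 to 0.087 at 48 h. IFI27L2 ranged from -0.057 to 0.051 at 0 h and -0.021 to 0.050 at 12 h, IFI44 from -0.016 to 0.072 at 12 h, and IFI44L from -0.021 to 0.061, -0.039 to 0.036 and -0.051 to 0.018 at the 3 times. The interactions at 12 h ranged from -0.069 to 0.23 for IFI27L1, -0.040 to 0.068 for IFI27L2, -0.022 to 0.15 for IFI6 and -0.061 to 0.024 for IFI44L. Those at 48 h ranged from -0.019 to 0.25 for IFI27L1, -0.049 to 0.12 for IFI6 and -0.079 to 0.0024 for IFI44L. Those of 48 h against 12 h ranged from -0.037 to 0.12 for IFI27, -0.10 to 0.20 for IFI27L1, -0.0090 to 0.12 for IFI27L2, -0.060 to 0.032 for IFI6 and -0.055 to 0.021 for IFI44L. IFI27L2 at 48 h against 0 h in WT ranged from -0.043 to 0.061. The cause of these changes was not tested. Read totals are unknown, which limits the untreated levels most.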

Other observations

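RNA levels were read in the same libraries for genes whose proteins have been reported to work with members of the group. HSPA5, an endoplasmic reticulum chaperone reported to stabilize IFI6, rose from 254 ± 4.4 to 431 ± 12.9 RPKM at 12 h in WT cells and was back at 266 ± 18.9 RPKM at 48 h (SD, n = 3). The differences were 0.76 and -0.70 on the log2 scale (limma adjusted p = 1.95e-09 and 1.84e-08), and in KO cells 0.73 and -0.71. FKBP5, a binding partner reported for IFI44 and IFI44L, moved the other way, from 238 ± 7.9 to 199 ± 2.1 and 244 ± 14.9 RPKM in WT cells (adjusted p = 0.000169 and 8.42e-05). SKP2, a ubiquitin ligase subunit reported to act with IFI27, stayed between 21.9 and 27.9 RPKM, and NR4A1, a nuclear receptor reported to bind it, between 0.54 and 1.82 RPKM. Neither passed a comparison between times, and none of the 4 genes differed between genotypes by the test.

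The nearest genes of the table beside each locus were also read. LINC02574, the long noncoding RNA gene next to IFI6, was listed at 0 in all 6 untreated libraries and at 0.97 to 2.45 RPKM (WT) and 1.10 to 3.24 RPKM (KO) at 12 h, with 1.09 to 1.91 and 0.92 to 1.37 RPKM at 48 h. Whether reads of IFI6, at 594 RPKM or more in each treated library, entered these values was not tested. FAM76A, on the other side of IFI6, did not pass in either genotype (adjusted p = 0.342 and 0.203 at 12 h). DDX24, an RNA helicase gene on the IFI27L1 side of the IFI27 locus, rose by 0.34 in WT and 0.47 in KO cells by 12 h (adjusted p = 2.45e-05 and 6.15e-07) and fell by 0.21 and 0.27 from 12 to 48 h, the interval in which IFI27 rose. SERPINA1, on the other side, was lower in untreated KO cells (0.43 to 1.11 RPKM against 1.74 to 2.17 RPKM in WT, difference -0.85, adjusted p = 0.00152). DNAJB4, beside IFI44L, rose by 0.42 in WT cells at 12 h (adjusted p = 0.00798) and differed by 0.18 in KO cells (adjusted p = 0.203), with an interaction of -0.23 (adjusted p = 0.942). ADGRL2, beyond IFI44, stayed under 1 RPKM and was not tested.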
